A study of Mus musculus with 2 samples.

Results

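The 10 genes described here belong to the bone morphogenetic protein (BMP) pathway and were measured in mouse pancreatic tumours, namely the secreted antagonists Grem1 and Smoc1, the ligands Bmp2, Bmp4 and Bmp7, the receptors Bmpr1a and Bmpr2, and the target genes Id1, Id2 and Id3. They are 10 of the 32285 genes in the count tables and were found by symbol. The members were chosen by their UMI sums per cell class and library, which were already known, chiefly Grem1 and Smoc1 in tumour cells, Bmp2 in macrophages and the Id genes throughout. All values below are therefore descriptions.

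BMP ligands are secreted dimers that bind a complex of type I receptors (such as Bmpr1a) and type II receptors (such as Bmpr2) on the receiving cell. The receptors phosphorylate Smad1 and Smad5, which enter the nucleus with Smad4 and raise transcription of the Id genes, whose proteins bind basic helix-loop-helix factors and keep them off DNA. Antagonists such as Gremlin 1, the product of Grem1, hold ligands outside the cell. In the gut and pancreas the pathway is known for patterning of the epithelium and for exchange of signals between epithelium, stroma and vessels.

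Single-cell RNA was measured in 2 tumours grown in the mouse pancreas from KPC cells, a mouse pancreatic cancer line. One tumour came from KPC-shV cells, which carry a control hairpin, and the other from KPC-shZEB1 cells, which carry a hairpin against Zeb1. The hairpin acts only in the implanted cells, while stroma, vessels and immune cells come from the host, whose strain and age the labels do not give. The study's results describe the mice of both groups used for single-cell sequencing as treated with gemcitabine, which the labels do not give. The comparison asks how the cells of the tumours differ. Each group was a single mouse, tumour, dissociation and library, so effects of these cannot be told apart from the hairpin, and no test was possible.

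After filtering, 11398 cells with 101201508 UMIs (counted RNA molecules) remained in KPC-shV and 12104 cells with 118943000 UMIs in KPC-shZEB1. The libraries shared 36 cell barcodes among kept cells. Clusters were called X-like from marker genes, and at least 3 markers of each list were present in at least 10% of the class's cells in both libraries. Granulocyte-like cells made up 60.2% of cells in KPC-shV and 35.9% in KPC-shZEB1. A level is the gene's UMIs divided by all UMIs of the class, times 1000000 (CPM), and a ratio is KPC-shZEB1 over KPC-shV. Ranges in parentheses give the exact 95% interval, which reflects counting error and no variation between cells or animals. They are too narrow where a few cells hold many of the UMIs. Orders of classes refer to the 9 classes with at least 50 cells in each library, and pericyte-like cells (14 and 10) and acinar-like cells (16 and 36) are given apart. CPM of 3' tags are not scaled to gene length and were not compared between genes.

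The hairpin's target was examined first. Zeb1, which encodes a repressor of epithelial genes, stood at 166 CPM (162–171) in tumour-like cells of KPC-shV and at 187 CPM (182–192) in those of KPC-shZEB1, a ratio of 1.12 (1.08–1.16). The library labelled KPC-shZEB1 thus showed no lower Zeb1, and whether intron reads were counted was not stated in the sources used here. The study's supplement reports Zeb1 knockdown efficiency in KPC cells and Zeb1 staining of tumour tissue, which were not measured here. In host cells the ratio was 1.49 in granulocyte-like, 1.79 in monocyte-like and 1.28 in macrophage-like cells, and 1.00 in endothelial-like and 0.995 in B-like cells. The lowest level among the larger classes was 34.0 CPM in KPC-shV and 59.4 CPM in KPC-shZEB1. The tumour-like ratio with these unequal levels subtracted was not computed. T-NK-like cells held the most Zeb1 (1291 and 1437 CPM), and the part of RNA from other cells in the tumour-like values was not tested. The 2 groups below are therefore libraries labelled KPC-shV and KPC-shZEB1, and no direction is tied to the amount of Zeb1.

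Grem1 (chr2:113746164-113758646, minus strand, GRCm38) was found mainly in tumour-like cells. Tumour-like cells held 4376 Grem1 UMIs in KPC-shV and 3046 in KPC-shZEB1, which was 87.8% and 85.2% of all Grem1 UMIs in kept cells, while this class held 34.4% and 29.0% of all UMIs. The level was 126 CPM (122–129) in KPC-shV and 88.3 CPM (85.2–91.5) in KPC-shZEB1. Fibroblast-like cells came next with 17.2 and 14.1 CPM, whose intervals did not meet those of the tumour-like cells. Every other class with at least 50 cells in each library lay between 4.00 and 14.2 CPM, the range in which B-like cells (6.89 and 5.82 CPM) also fell. Free RNA in the droplets gives UMIs in cells that do not make a transcript, and its part in these low levels was not tested.

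The 250 bases before the Grem1 start site are shown because they hold a letter string described in BMP-responsive elements of Id genes. RefSeq's table (GRCm38.p6) held 6 of the 10 members, namely Grem1, Bmp4, Bmpr1a, Bmpr2, Id2 and Id3, and Id1, Smoc1, Bmp2 and Bmp7 are only named here. Capitals mark GGCGCC, which reads the same on both strands, at position -78 from the start site. The window lies at chr2:113758649-113758898, minus strand, outside any annotated Grem1 exon.
Grem1 promoter: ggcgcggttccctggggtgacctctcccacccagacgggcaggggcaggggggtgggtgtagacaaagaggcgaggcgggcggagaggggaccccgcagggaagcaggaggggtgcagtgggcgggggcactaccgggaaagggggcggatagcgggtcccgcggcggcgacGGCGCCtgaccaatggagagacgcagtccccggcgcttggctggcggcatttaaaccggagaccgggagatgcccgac
GGCGCC was present in 9.59% of the 32851 promoter windows of this length in the table. Bmpr1a, Bmpr2 and Id2 also held it. The string holds only G and C, and GC content was 72% in the Grem1 window, 78.8% in Bmpr1a, 64% in Bmpr2 and 62.8% in Id2. The share over all windows was not matched for GC content. The longer string GTCTAGAC was in none of the 6 windows and in 0.167% of all. A match describes letters only and says nothing of binding.

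Smoc1 (chr12:81026808-81186414, plus strand), which encodes a matrix-associated glycoprotein that antagonises BMP signalling, had the same leading pair among the 9 larger classes. Tumour-like cells held 89.2% of its UMIs in KPC-shV and 84.0% in KPC-shZEB1. The level there was 88.4 CPM (85.3–91.5) in KPC-shV and 60.7 CPM (58.2–63.4) in KPC-shZEB1. Fibroblast-like cells reached 8.61 and 7.60 CPM, below the 21.4 CPM from 3 UMIs and 36.5 CPM from 11 UMIs of the few acinar-like cells, and the other classes with at least 50 cells in each library 3.13 to 7.76 CPM. Over 18 class and library pairs from 9 classes, the genes whose log2(CPM + 1) was most like that of Grem1, among 6970 considered, were Igf2bp2 (Pearson r = 0.985), Smoc1 (r = 0.969) and Clu (r = 0.963). The points share libraries and free RNA, so these r values describe the pattern of levels alone.

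**Figure D1:**
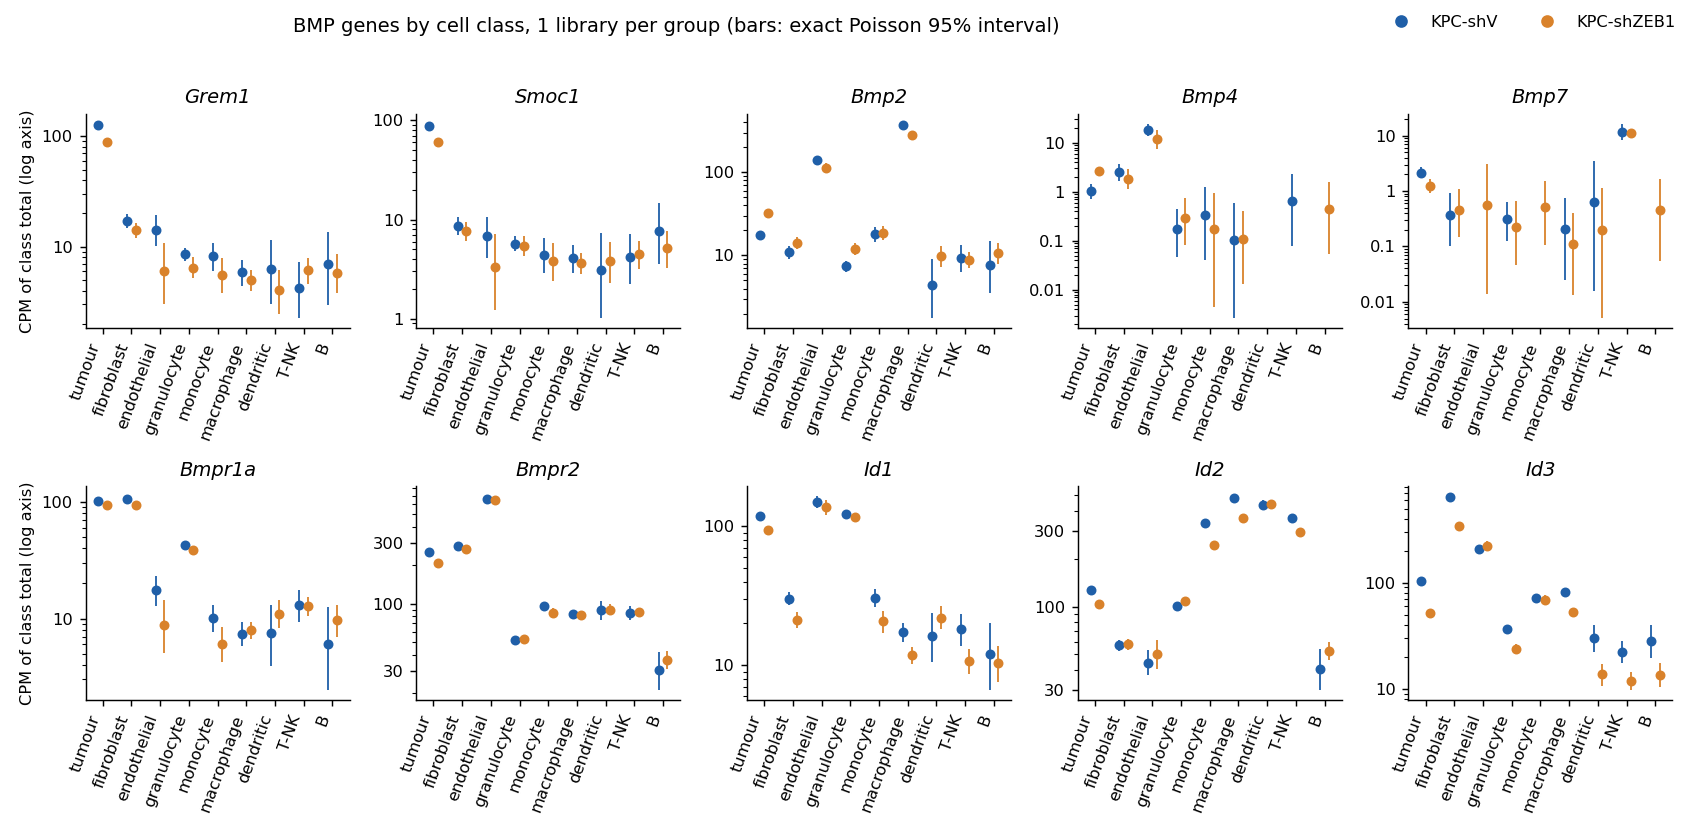
Level of the 10 BMP genes in 9 cell classes, as CPM of the class total on a log axis, with 1 point per library (KPC-shV blue, KPC-shZEB1 orange) and bars for the exact Poisson 95% interval. Values of 0 are not drawn. Grem1 and Smoc1 stand highest in tumour-like cells, Bmp2 in macrophage-like cells (368 and 278 CPM), Bmpr2 in endothelial-like cells (665 and 643 CPM) and Id3 in fibroblast-like cells (640 and 344 CPM).

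Both antagonists were lower in the tumour-like cells of KPC-shZEB1. The ratio was 0.703 (0.671–0.736) for Grem1 and 0.688 (0.650–0.727) for Smoc1. A gene was called where its ratio was at least 1.5 or at most 0.667 with the counting interval off 1, among genes with a mean of at least 10 CPM and at least 30 UMIs. Neither antagonist was called. Of the 10 members, 8 were assessed in tumour-like cells, of which Bmp2 was called higher and Id3 lower, where 4.64% of the 9331 genes assessed were called higher and 1.46% lower. Bmp4 and Bmp7 were too low to be assessed.

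The tumour-like class held unlike clusters, and the libraries filled them unequally. Cluster 7 (led by Cntn5 and Prg4) had 760 cells in KPC-shV and 448 in KPC-shZEB1, cluster 12 (led by Lypd8, with Epcam among its leading genes) had 377 and 428, and cluster 15 had 347 and 325 cells of low depth (median 2320 and 2262 UMIs). Cluster 20 (led by Ralyl) had 8 and 224 cells, so it came almost wholly from KPC-shZEB1. With 1 library per group, such a cluster may belong to that tumour alone. Cluster 26 had 7 and 27 cells.

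Grem1 stood at 185 CPM (179–191) in cluster 7 of KPC-shV and at 120 CPM (115–126) in that of KPC-shZEB1. In cluster 12 it was 16.3 CPM (13.98–18.83) and 12.9 CPM (10.88–15.08), which is near the level of fibroblast-like cells. Cluster 20 held 327 CPM (261–404) from 8 cells in KPC-shV and 168 CPM (159–178) in KPC-shZEB1. Grem1 was thus concentrated in clusters 7 and 20, and cluster 20 gave 1.71% of all Grem1 UMIs in KPC-shV and 33.5% in KPC-shZEB1. The ratio was 0.652 (0.615–0.690) in cluster 7, 0.790 (0.632–0.987) in cluster 12, 0.646 (0.404–1.02) in cluster 15 and 0.515 (0.413–0.650) in cluster 20. Leaving out cluster 20 brought the class to 124 and 67.5 CPM and its ratio to 0.544 (0.514–0.574), so that Grem1 was then called lower, beside 1.61% of all genes assessed. A few cells weighed heavily, since the 5 cells with most Grem1 in cluster 7 held 11.3% of its UMIs there in KPC-shV and 28.8% in KPC-shZEB1. The share of tumour-like cells with a Grem1 UMI was 30.8% and 29.0%, and 8.21% and 5.79% with each cell thinned to 1000 UMIs, against 0.346% and 0.979% of thinned B-like cells (median depth 23740 and 23776 UMIs per tumour-like cell, 3732 and 3418 per B-like cell).

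Smoc1 was 131 CPM (126–136) and 113 CPM (107–119) in cluster 7, a ratio of 0.862 (0.810–0.917). In cluster 12 it was 14.5 CPM (12.31–16.88) and 18.4 CPM (16.04–21.06), a ratio of 1.27 (1.03–1.57). It was therefore lower in KPC-shZEB1 in the cluster that held most of it and higher in cluster 12. Smoc1 is among the genes that lead cluster 7, although it was not among the genes that set the clusters. Holding the cluster mix of KPC-shZEB1 at that of KPC-shV moved the Smoc1 ratio to 0.884 and the Grem1 ratio to 0.655.

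**Figure D2:**
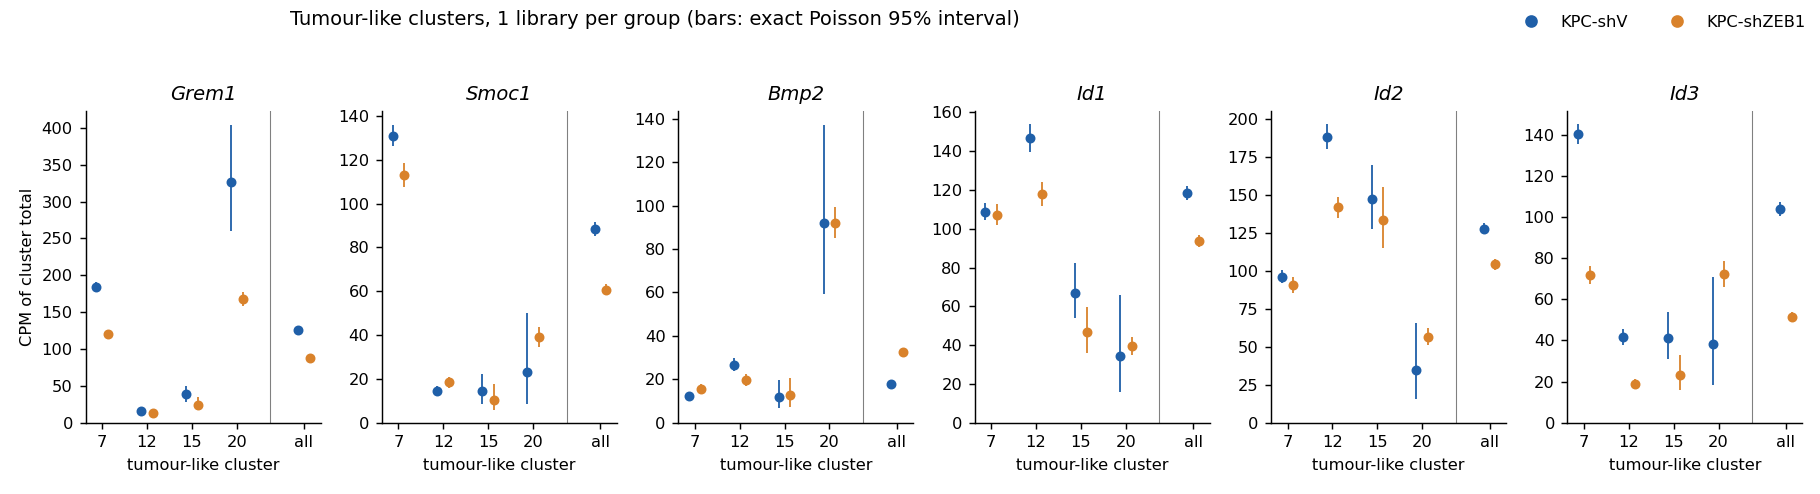
Level of 6 BMP genes in the tumour-like clusters 7, 12, 15 and 20 and in the whole class (all), as CPM of the cluster total from an axis at 0, with 1 point per library and bars for the exact Poisson 95% interval. Cluster 20 holds 8 cells of KPC-shV and 224 of KPC-shZEB1. Grem1 is high in clusters 7 and 20, Smoc1 in cluster 7 and Bmp2 in cluster 20, and Id3 is lower in KPC-shZEB1 in clusters 7, 12 and 15.

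Among the ligands, Bmp2 (chr2:133552159-133562885, plus strand), which drives bone formation and acts widely in mesenchyme, was mainly a macrophage transcript. Macrophage-like cells held 69.5% of its UMIs in KPC-shV and 70.5% in KPC-shZEB1. Its level there was 368 CPM (356–380) and 278 CPM (270–285), followed by endothelial-like cells with 142 CPM (129–157) and 112 CPM (97.2–129). Monocyte-like cells were at 17.9 and 18.8 CPM, tumour-like cells at 17.7 and 32.4 CPM, and the remaining classes with at least 50 cells in each library at 4.38 to 14.3 CPM. The macrophage-like level depended on where the class was drawn. It was between 157 and 212 CPM in KPC-shV and between 136 and 166 CPM in KPC-shZEB1 with no upper UMI limit, with no or another doublet removal, at resolution 0.5 and with each library clustered alone. With the unnamed cluster 8 counted in, it was 204 and 157 CPM. The genes most like Bmp2 over the 18 pairs were Lyve1 (r = 0.927), a hyaluronan receptor of tissue macrophages and lymphatic vessels, Stab1 (r = 0.918), a scavenger receptor, and Stard8 (r = 0.899).

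Within the macrophage-like class, Bmp2 separated the 2 clusters. Cluster 16, led by Lyve1, Fcna, Folr2 and Cd163, had 280 and 371 cells and held 1054 CPM (1017–1093) and 989 CPM (958–1020) of Bmp2, which is itself among the genes that lead it. Cluster 6, led by Ms4a7 and Gpnmb, had 470 and 933 cells and held 84.1 and 72.4 CPM. In cluster 16, 81.8% and 82.7% of cells had a Bmp2 UMI, and in cluster 6 29.8% and 27.1%. The unnamed myeloid cluster 8, led by Dcstamp with Mmp12 among its leading genes, was at 10.3 and 11.2 CPM, close to the level of classes with little Bmp2. Cluster 16 alone held 58.3% and 56.2% of all Bmp2 UMIs while it held 2.77% and 3.41% of all UMIs.

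Bmp2 was lower in the macrophage-like cells of KPC-shZEB1 by a ratio of 0.754 (0.723–0.788), which was not called. Inside the clusters the ratio was nearer to 1, at 0.938 (0.894–0.984) in cluster 16 and 0.861 (0.776–0.955) in cluster 6. Cluster 16 made up 37.3% of macrophage-like cells in KPC-shV and 28.5% in KPC-shZEB1, and with this mix held equal the ratio was 0.925. In these cells the 8 granulocyte markers summed to 1437 and 772 CPM, the 6 T markers to 13.88 and 42.01 CPM, the 6 B markers to 35.9 and 81.6 CPM, the 9 tumour markers to 322 and 413 CPM, the 7 fibroblast markers to 486 and 583 CPM and the 7 endothelial markers to 43.2 and 39.4 CPM, none of them at 0, and their part in the result was not tested. Endothelial-like Bmp2 was lower by a ratio of 0.788 (0.662–0.936), with 39.5% and 54.2% of the UMIs in 5 cells. Of the 9 larger classes, the Bmp2 interval lay below 1 in 2 classes, above 1 in 4 and held 1 in 3. Those above 1 were tumour-like, granulocyte-like (1.60, 1.28–1.99), dendritic-like (2.24, 1.01–5.86) and fibroblast-like cells (1.31, 1.02–1.68). With the lowest class level subtracted, the ratio was 0.988 in granulocyte-like and 0.824 in fibroblast-like cells.

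In tumour-like cells Bmp2 was called higher in KPC-shZEB1, at 17.7 CPM (16.3–19.1) and 32.4 CPM (30.6–34.4), a ratio of 1.84 (1.66–2.03). Cluster 20 held it at 92.2 CPM (59.1–137) and 91.9 CPM (85.0–99.2), the other tumour-like clusters at 8.87 to 31.4 CPM. Without cluster 20 the class was at 17.1 and 16.96 CPM, with a ratio of 0.992 (0.876–1.12), and with the cluster mix held it was 0.974. The call therefore rested on cluster 20. Cluster by cluster, Bmp2 was 12.4 and 15.4 CPM in cluster 7 (ratio 1.24, 1.03–1.49) and 26.8 and 19.6 CPM in cluster 12 (ratio 0.734, 0.615–0.875). The lowest Bmp2 level among the 9 larger classes was 4.38 CPM in KPC-shV and 8.90 CPM in KPC-shZEB1. The cluster 7 values lie near these unequal levels, and its direction with them subtracted was not tested.

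**Figure D3:**
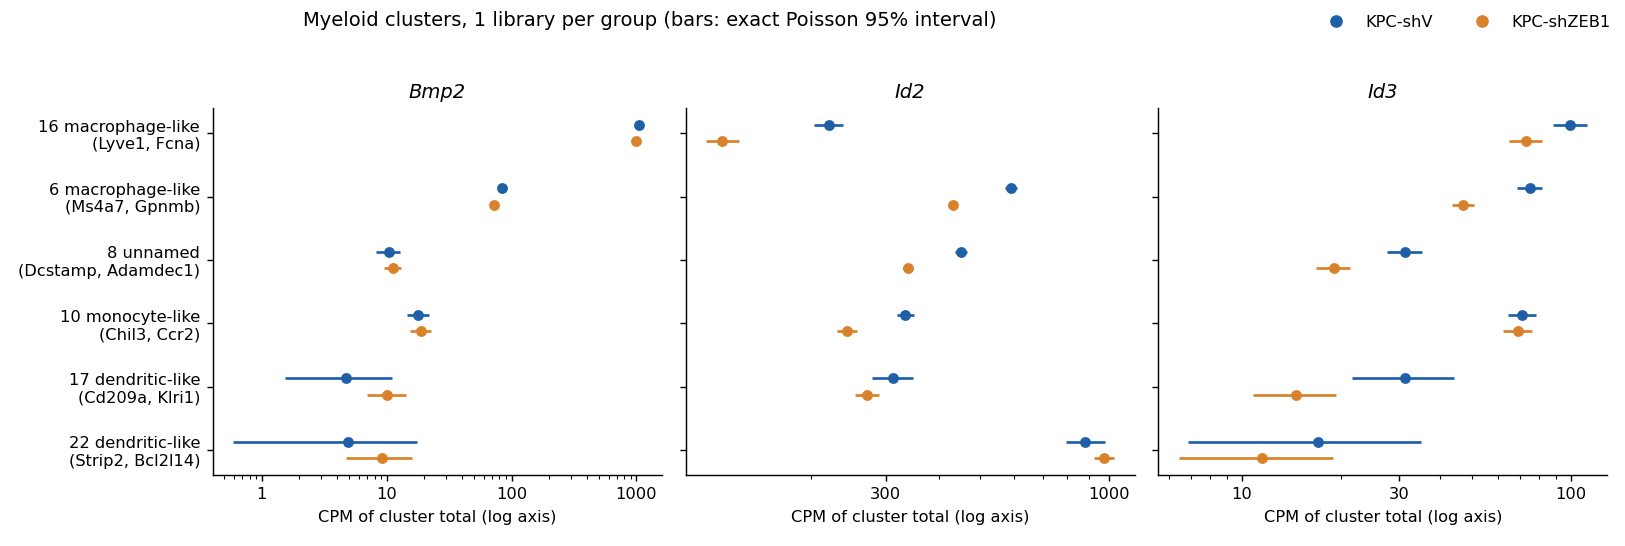
Level of Bmp2, Id2 and Id3 in 6 myeloid clusters, as CPM of the cluster total on log axes that differ between panels, with 1 point per library and bars for the exact Poisson 95% interval. Bmp2 is at 1054 and 989 CPM in cluster 16 and at 84.1 and 72.4 CPM in cluster 6, while Id2 is higher in cluster 6 (589 and 431 CPM) than in cluster 16 (220 and 124 CPM).

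Bmp4 (chr14:46383520-46390669, minus strand), a ligand made by many mesenchymal tissues, was sparse. Endothelial-like cells held the highest level, 18.5 CPM (13.8–24.2) from 52 UMIs in KPC-shV and 12.2 CPM (7.61–18.4) from 22 UMIs in KPC-shZEB1, a ratio of 0.657 (0.380–1.10). Fibroblast-like cells were at 2.56 and 1.85 CPM. No Bmp4 UMI was found in dendritic-like cells of either library, which allows up to 2.31 and 0.738 CPM (upper end of the exact interval). In tumour-like cells Bmp4 was 1.03 CPM (0.724–1.43) from 36 UMIs and 2.64 CPM (2.12–3.24) from 91 UMIs, a ratio of 2.55 (1.72–3.87) at levels below the 10 CPM used for calls. Most of this came from cluster 7, with 30 and 70 UMIs, where 5 cells held 26.7% and 47.1% of them.

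Bmp7 (chr2:172868012-172940321, minus strand), known from kidney and eye development, was found in part of the T-NK-like cells and in tumour-like cells. T-NK-like cells held 11.7 CPM (8.17–16.2) from 36 UMIs and 11.01 CPM (8.95–13.4) from 99 UMIs, a ratio of 0.944 (0.639–1.42). Tumour-like cells held 2.15 and 1.25 CPM and every other class with at least 50 cells in each library at most 0.625 CPM. Among T-NK sub-clusters, the unnamed one led by Klra1 and Klra6 was at 21.9 and 22.3 CPM from 8 and 26 UMIs, the CD8 effector T-like one at 14.6 and 22.2 CPM from 5 and 25 UMIs, and the regulatory T-like one at 31.7 and 9.89 CPM from 9 and 6 UMIs. In tumour-like cluster 12 Bmp7 was 5.96 CPM (4.61–7.59) and 1.54 CPM (0.914–2.44), a ratio of 0.259 (0.144–0.441) on 66 and 18 UMIs.

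Bmpr1a (chr14:34410734-34503341, minus strand) is the type I receptor that binds Bmp2 and Bmp4. Its level was much the same in fibroblast-like cells (106 and 94.6 CPM) and tumour-like cells (101 and 93.8 CPM), whose intervals overlapped in both libraries. The ratio was 0.894 (0.821–0.973) in fibroblast-like and 0.926 (0.883–0.971) in tumour-like cells. Of the larger classes, granulocyte-like cells came next with 42.9 and 38.7 CPM, and within them the cluster led by Prok2 reached 73.8 and 76.0 CPM and the other granulocyte-like clusters 22.7 to 61.3 CPM. The few pericyte-like cells held 76.4 CPM (46.0–119) and 172 CPM (117–244). Lymphoid and mononuclear myeloid classes lay between 6.03 and 12.96 CPM.

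Bmpr2 (chr1:59763400-59879014, plus strand) is the type II receptor whose loss causes hereditary pulmonary arterial hypertension in people. Endothelial-like cells held 665 CPM (635–696) and 643 CPM (607–681), a ratio of 0.968 (0.899–1.04). Fibroblast-like cells were at 283 and 269 CPM and tumour-like cells at 252 and 207 CPM. The order endothelial, fibroblast, tumour was the same in both libraries with no overlap of intervals. Immune classes lay between 30.2 and 95.3 CPM, lowest in B-like cells. The tumour-like ratio was 0.819 (0.793–0.845), and it was 0.870 (0.834–0.907) in cluster 7 and 0.996 (0.940–1.06) in cluster 12.

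Id1 (chr2:152736251-152737410, plus strand) showed high levels in classes of different kinds. Endothelial-like cells held 150 CPM (136–165) and 138 CPM (121–156), granulocyte-like cells 122 CPM (117–127) and 116 CPM (111–122), and tumour-like cells 119 CPM (115–122) and 93.6 CPM (90.4–96.9). Granulocyte-like and tumour-like levels overlapped in KPC-shV and not in KPC-shZEB1. The next of the larger classes reached 30.6 CPM in KPC-shV and 22.0 CPM in KPC-shZEB1, and pericyte-like cells had 20.1 and 33.3 CPM from 5 and 6 UMIs. Among granulocyte-like clusters, the one led by Rdh12 and Retnlg was highest with 230 CPM (216–245) and 254 CPM (233–277), and the others lay between 67.8 and 146 CPM. In fibroblast-like cells, which had the most Id3 of the larger classes, Id1 was 30.2 and 21.1 CPM.

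The Id1 ratio in tumour-like cells was 0.789 (0.754–0.827). It was 0.985 (0.923–1.05) in cluster 7 and 0.803 (0.747–0.863) in cluster 12, and cluster 20 had a low level of 34.6 and 39.6 CPM. Without cluster 20 the ratio was 0.903 (0.861–0.947). In the other classes it was 0.954 (0.896–1.02) in granulocyte-like, 0.918 (0.782–1.08) in endothelial-like, 0.699 (0.588–0.831) in fibroblast-like and 0.681 (0.553–0.839) in macrophage-like cells. It was 0.677 (0.532–0.858) in monocyte-like, 0.854 (0.461–1.68) in B-like and 1.35 (0.877–2.16) in dendritic-like cells. It was called lower in T-NK-like cells, where 56 and 96 UMIs gave 18.2 and 10.7 CPM.

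Id2 (chr12:25093799-25097140, minus strand), which is needed for innate lymphoid, NK and dendritic cell development, was highest in immune cells. Levels were 481 and 362 CPM in macrophage-like, 437 and 440 CPM in dendritic-like, 361 and 293 CPM in T-NK-like and 333 and 243 CPM in monocyte-like cells. Tumour-like cells were at 128 and 104 CPM, granulocyte-like cells at 100 and 108 CPM, and B-like, endothelial-like and fibroblast-like cells at 40.5 to 58.1 CPM.

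Id2 also separated cell states. The dendritic-like cluster 22, led by Strip2, held 882 CPM (794–978) and 975 CPM (922–1030), and the cluster of plasmacytoid markers led by Siglech 52.3 and 48.2 CPM. CD8 effector T-like cells held 911 and 656 CPM, a CD4 T-like sub-cluster led by Hs6st3 677 and 537 CPM, regulatory T-like cells 472 and 399 CPM and the NK-like sub-clusters 365 to 590 CPM. The CD8 naive T-like sub-clusters lay between 19.9 and 97.0 CPM. The macrophage-like clusters ran against the order of Bmp2, with 589 and 431 CPM in cluster 6 and 220 and 124 CPM in cluster 16. The ratio was 0.752 (0.724–0.781) in macrophage-like, 0.729 (0.680–0.781) in monocyte-like, 0.813 (0.758–0.873) in T-NK-like and 0.816 (0.781–0.853) in tumour-like cells, 1.01 (0.926–1.10) in dendritic-like and 1.08 (1.01–1.15) in granulocyte-like cells, and none was called. With the lowest class level subtracted as background, the tumour-like Id2 ratio was 0.619.

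Id3 (chr4:136143497-136145755, plus strand) was the member that differed most widely between the libraries. Over all kept cells it was 137 CPM in KPC-shV and 68.6 CPM in KPC-shZEB1. Fibroblast-like cells held 640 CPM (625–655) and 344 CPM (333–355), a ratio of 0.537 (0.516–0.559), and were the only class with at least 50 cells in each library above 250 CPM. Tumour-like cells held 104 CPM (100–107) and 51.3 CPM (48.9–53.7), a ratio of 0.495 (0.467–0.524). Macrophage-like cells held 82.3 CPM (76.6–88.2) and 52.9 CPM (49.6–56.4), a ratio of 0.643 (0.585–0.708). The 14 and 10 pericyte-like cells held 900 CPM (786–1030) and 349 CPM (269–447).

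Short stretches around the first match in the Id2 and Id3 windows are shown because these are the targets described, with capitals on GGCGCC in Id2 and on GGCTCC, the reverse complement of GGAGCC, in Id3. They lie at chr12:25096306-25096335 on the minus strand and chr4:136143623-136143652 on the plus strand (RefSeq, GRCm38.p6).
Id2: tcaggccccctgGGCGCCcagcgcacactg
Id3: cctcgcatccgaGGCTCCgctgtcctcggc
The matches start at -231 in Id2 and -187 in Id3. GGAGCC was present, on either strand, in 26.0% of the 32851 windows, among them those of Bmp4, Id2 and Id3. In the GENCODE annotation the Id3 stretch lies in the untranslated start of the first exon of an Id3 transcript, and the Id2 stretch in an intron of a longer Id2 transcript.

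Id3 was called lower in tumour-like, fibroblast-like, macrophage-like, granulocyte-like, dendritic-like, T-NK-like and B-like cells, 7 of the 9 classes with at least 50 cells in each library. The share of all genes assessed that were called lower was 1.46% in tumour-like, 2.55% in fibroblast-like, 1.12% in macrophage-like, 2.44% in granulocyte-like, 3.89% in dendritic-like, 1.67% in T-NK-like and 1.97% in B-like cells. The exceptions were endothelial-like cells with 209 CPM (193–227) and 223 CPM (202–246), a ratio of 1.07 (0.936–1.21), and monocyte-like cells with 71.1 CPM (64.4–78.2) and 68.9 CPM (62.3–76.0), a ratio of 0.969 (0.843–1.12). In the lymphoid and dendritic-like classes Id3 was at 22.4 to 30.0 CPM in KPC-shV and 11.8 to 13.6 CPM in KPC-shZEB1. The shares called higher were 14.1% in granulocyte-like, 4.81% in dendritic-like, 4.25% in T-NK-like and 5.83% in B-like cells, with no member among them. No member was called in monocyte-like cells, where 4.77% of genes were called higher and 1.8% lower, and none was assessed in acinar-like cells, where the shares were 9.41% and 12.1%. In pericyte-like cells Bmpr1a was called higher and Id3 lower, beside 7.07% and 8.21%. The lowest Id3 level among the 9 larger classes was that of T-NK-like cells in both libraries, and it differed between them. After the T-NK-like level was subtracted in each library, the ratio was 0.486 in tumour-like, 0.538 in fibroblast-like, 0.687 in macrophage-like, 0.845 in granulocyte-like and 1.13 in endothelial-like cells. In dendritic-like cells 7.66 and 1.82 CPM were left (ratio 0.237) and in B-like cells 6.07 and 1.65 CPM (ratio 0.271). T-NK-like cells had none left by construction. Most of the Id3 in dendritic-like, T-NK-like and B-like cells was thus at the subtracted level. In tumour-like cells 81.3 and 39.5 CPM were left, and in fibroblast-like cells 618 and 332 CPM. Macrophage-like cells kept 59.9 and 41.1 CPM and granulocyte-like cells 14.1 and 11.9 CPM. Barcodes under 1000 UMIs held Id3 at 94.6 CPM from 32 UMIs and 63.3 CPM from 21 UMIs.

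Inside tumour-like cells the Id3 ratio was below 1 in each cluster with over 100 cells in both libraries. It was 0.512 (0.476–0.550) in cluster 7, where 140 CPM (135–145) stood against 71.8 CPM (67.4–76.4). It was 0.448 (0.380–0.528) in cluster 12 and 0.562 (0.350–0.889) in cluster 15. Id3 was called lower in all 3, beside 1.75%, 1.78% and 6.49% of the genes assessed. The genes called higher were 4.64%, 4.02% and 6.96%. Cluster 20 went the other way, with 38.4 CPM (18.4–70.6) from 10 UMIs and 72.3 CPM (66.2–78.8) from 515 UMIs. Without it the ratio was 0.440 (0.412–0.469). The share of fibroblast-like cells with an Id3 UMI was 97.2% and 93.7%, and 42.9% and 27.1% at 1000 UMIs per cell. In macrophage-like clusters the ratio was 0.732 (0.619–0.865) in cluster 16 and 0.628 (0.559–0.706) in cluster 6.

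**Figure D4:**
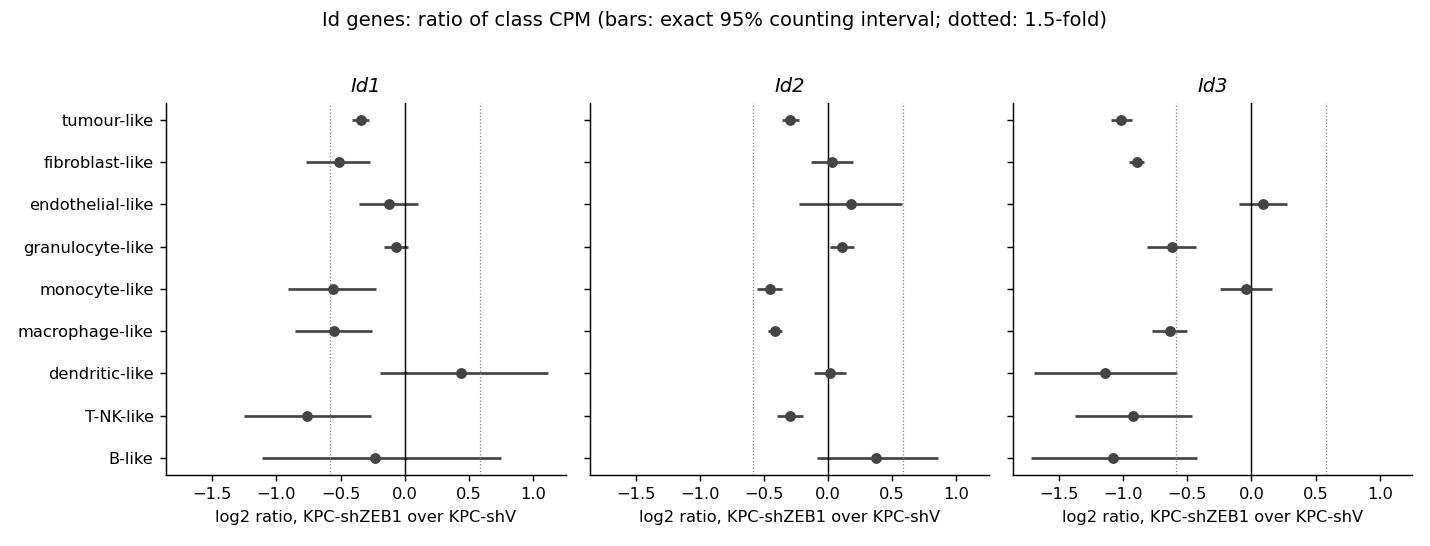
Log2 ratio of class CPM, KPC-shZEB1 over KPC-shV, of Id1, Id2 and Id3 in 9 cell classes, with bars for the exact 95% counting interval, a line at 0 and dotted lines at 1.5-fold. Id3 lies left of the dotted line in 7 classes and near 0 in endothelial-like and monocyte-like cells, while Id1 passes it only in T-NK-like cells and Id2 in none.

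The ratios of the 3 Id genes differed within classes. In fibroblast-like cells Id3 had a ratio of 0.537 and Id2 one of 1.02 (0.912–1.14), with intervals that did not meet. With the lowest class level subtracted, the fibroblast-like ratio was 0.477 for Id2 (16.4 and 7.85 CPM left), 0.538 for Id3 and 0.597 for Id1. The Id2 level subtracted was that of B-like cells in KPC-shV (40.5 CPM) and of endothelial-like cells in KPC-shZEB1 (50.3 CPM, 40.5–61.7). The latter interval overlapped that of fibroblast-like cells (58.1 CPM, 53.6–62.8), so the Id2 remainder cannot show whether the contrast holds. In monocyte-like cells Id2 was lower with a ratio of 0.729 while Id3 had one of 0.969, and after the same subtraction they were 0.658 and 1.17. Over the 18 class and library pairs the genes most like Id1 were Cggbp1 (r = 0.922), Pgm2 (r = 0.910) and B4galt3 (r = 0.901), and those most like Id3 were Azin1 (r = 0.959), Emilin1 (r = 0.929) and Snx7 (r = 0.929).

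RNA of other cell types differed between the libraries in the same tumour-like cells. The 8 macrophage markers summed to 715 CPM in KPC-shV and 1845 CPM in KPC-shZEB1, the 8 granulocyte markers to 1329 and 630 CPM, the 7 fibroblast markers to 1031 and 964 CPM and the 7 endothelial markers to 45.2 and 49.2 CPM, with no marker at 0. Their part in the ratios above was not tested. Over genes of at least 50 CPM in each class, the ratio had a median of 0.994 in tumour-like, 0.982 in fibroblast-like and 0.993 in macrophage-like cells.

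The members were then placed within a list of 60 genes of the BMP pathway, which holds all 10 of them. They were chosen with their UMI sums per class and library known. The list's shares and median here and in the classes below therefore partly restate that choice. In tumour-like cells 25 of the 60 were assessed, of which 2 were called higher (8.00%) and 3 lower (12%), beside 4.64% and 1.46% of all genes. Fst, which encodes the activin and BMP binding protein follistatin, was higher with a ratio of 1.65, as was Bmp2. Tll1, a tolloid-like protease that cleaves chordin, was 23.9 and 7.63 CPM (ratio 0.319), Bmper, an extracellular BMP regulator, was lower, and so was Id3. The median log2 ratio was -0.28 over the 25 genes and 0.01 over all 9331. By role, 1 of 13 ligands was assessed and called higher, 9 of 19 antagonists and extracellular modulators were assessed with 1 higher and 2 lower, and none of the 5 receptors and co-receptors or 5 signal transducers assessed was called. Of 11 targets and feedback genes 5 were assessed, and Id3 alone was called.

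None of the other list genes that reached 50 CPM in tumour-like cells was called. The ratio was 0.820 for Smad1 and 0.937 for Smad4, which carry the signal, 0.833 for the receptor Acvr1, 0.845 for Acvr2a, 0.824 for Smurf1 and 0.893 for Smurf2, which mark Smads and receptors for degradation, 0.953 for the feedback inhibitor Smad7 and 1.07 for Bmp1, a procollagen and chordin protease. Among the extracellular modulators, the follistatin-like Fstl1 was 71.9 and 98.1 CPM (ratio 1.36, 1.30–1.44) and the antagonist Nbl1 88.4 and 69.97 CPM (ratio 0.791, 0.750–0.835). Leaving out the tumour-like cluster led by Ralyl, which came almost wholly from KPC-shZEB1, moved several ratios. Fstl1 was then 68.6 and 75.3 CPM (ratio 1.10, 1.03–1.16) and the Nbl1 ratio was 0.915 (0.866–0.967). The Bmp1 ratio was 0.910 (0.848–0.976), the opposite direction from the whole class. Smad1, Smad4, Smad7, Acvr1, Acvr2a, Smurf1 and Smurf2 kept their direction. By cluster, the list gave Fst higher and Bmper, Grem1, Id3 and Tll1 lower in cluster 7, with 27 genes assessed, beside 4.64% and 1.75% of all genes. In cluster 12 it gave Fst higher and Id3 lower, with 23 assessed, beside 4.02% and 1.78%. In cluster 15, also with 23 assessed, Acvr1, Bmpr1a, Id3 and Smad7 were called lower and none higher, beside 6.49% and 6.96%.

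In fibroblast-like cells 35 genes were assessed, of which 3 were called lower (8.57%), beside 2.55% of the 8721 genes assessed. Fst was among the genes called higher, which made up 3.37% of all genes, with 39.5 and 65.5 CPM (ratio 1.66, 1.47–1.87). Id3, the ligand Gdf6 (21.1 and 13.9 CPM) and the decoy receptor Bambi (15.4 and 9.27 CPM) were lower. Fibroblast-like cells also held the high levels of Fstl1 (1756 and 1809 CPM), Bmper (394 and 320 CPM), Bmp1 (369 and 386 CPM) and Smad7 (385 and 355 CPM), none of them called.

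In endothelial-like cells 29 genes were assessed, with 1 called higher (3.45%) and 6 lower (20.7%), beside 7.5% and 4.55% of 8863 genes. The inhibitory Smad6 was 17.8 and 35.9 CPM (ratio 2.02, 1.38–2.98). Hey1, a target of Notch and BMP9 signalling, was 46.6 and 19.9 CPM, Bambi 90.3 and 58.0 CPM and the ligand Bmp6 41.6 and 27.6 CPM. Of the 10 members, Grem1 and Bmpr1a were called lower here, from 40 and 11 UMIs and from 49 and 16 UMIs, so few that 5 cells held 80.0% and 63.6% of the Grem1. In this class the tumour markers summed to 576 and 382 CPM, the granulocyte markers to 1702 and 604 CPM, the macrophage markers to 585 and 1980 CPM, the fibroblast markers to 448 and 783 CPM, the T markers to 8.18 and 49.7 CPM and the B markers to 900 and 753 CPM, none of them at 0, and their part in these calls was not tested. The co-receptor Eng held 455 and 524 CPM and Smad1 252 and 240 CPM.

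In macrophage-like cells 21 genes were assessed, with Bambi higher (10.5 and 16.1 CPM, ratio 1.53, 1.21–1.93) and Id3 lower, beside 2.9% and 1.12% of 7834 genes. No ligand other than Bmp2 was assessed in this class. Bmpr2 was 83.7 and 82.2 CPM and Smad4 80.2 and 76.4 CPM, with ratios of 0.982 and 0.952, and Acvr2a, Smad1 and Smurf1 had intervals that held 1.

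**Figure D5:**
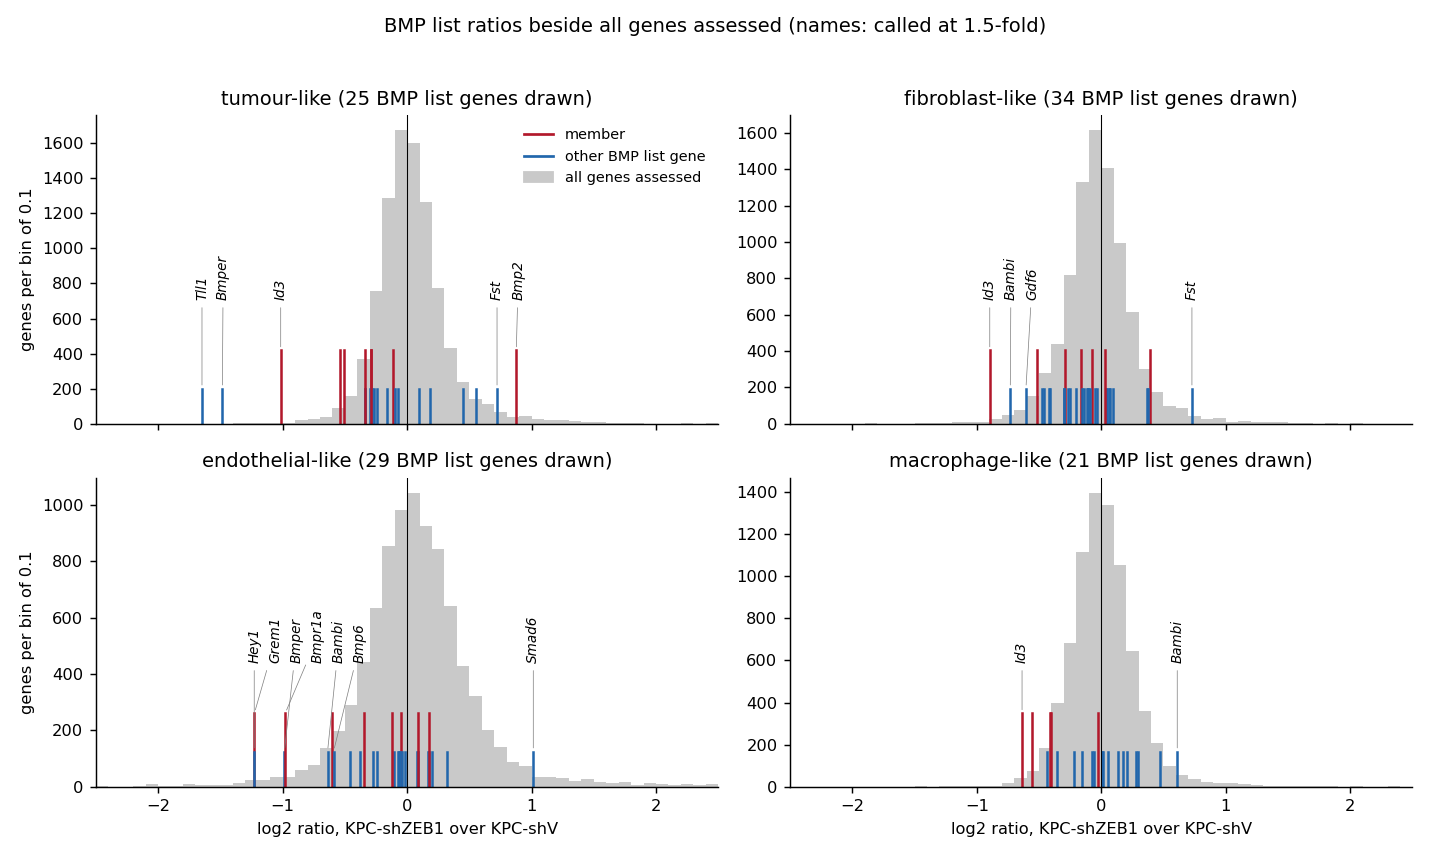
Log2 ratio, KPC-shZEB1 over KPC-shV, of the BMP list genes assessed and reported (red for the 10 members, blue for the others) over a histogram of all genes assessed (grey, genes per bin of 0.1 on the y axis) in tumour-like, fibroblast-like, endothelial-like and macrophage-like cells. Names mark called genes, and line heights carry no value. In tumour-like cells most list genes lie left of 0, with a median of -0.28, while Bmp2 and Fst lie to the right.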

How the data were processed

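Per the labels and the study's methods, libraries were made with 10x Chromium 3' v3.1 chemistry, 1 tumour per group. The deposited files hold raw counts of UMIs for called cells, and the authors' notes name Cell Ranger 7.0.1 and mm10. Depth was 130941086 UMIs in 12594 barcodes (KPC-shV) and 143461224 UMIs in 13271 barcodes (KPC-shZEB1). The study's filter was applied (500 genes or more, between 1000 and 60000 UMIs, mitochondrial share up to 15%) and left 11713 and 12447 cells. Scrublet in scanpy 1.11.5 removed 315 (2.69%) and 343 (2.76%) doublets with a score above 0.2, a limit set after the scores were seen, where the study used DoubletFinder.

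Both libraries were clustered together on 30 components of 3000 variable genes, without the 60 BMP genes and Zeb1, with 20 neighbours and Leiden resolution 1 (leidenalg 0.10.2). This gave 28 clusters and 16 T-NK sub-clusters. Names came from listed markers, and the naming rule was changed after names were seen, so that monocytes and macrophages, dendritic types, and T and NK cells each counted as 1 lineage when the leading genes were checked. The members, lists and markers were chosen with earlier results of these data known.

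UMIs were summed by class, with exact Poisson intervals, exact conditional intervals for ratios and exact Clopper-Pearson intervals for shares (scipy 1.17.1). They cover counting error only, since no replicate existed, so no test was run. The calculation was tested on simulated data. Named genes are the 10 members, Zeb1, and BMP list genes that were called or reached 50 CPM in 4 classes. Like genes needed at least 50 CPM in 1 pair, over classes with at least 20 cells in each library. Coordinates come from GENCODE vM21. The result of 1 BMP list gene is not reported here.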

Additional observations from a re-analysis of the deposited data

Results flagged for a closer look

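Some genes were called in opposite directions in different classes, which flagged them. Bambi, a decoy receptor, had a ratio of 1.73 in granulocyte-like, 1.57 in monocyte-like and 1.53 in macrophage-like cells, and of 0.603 in fibroblast-like, 0.642 in endothelial-like and 0.514 in dendritic-like cells. Bmpr1a had a ratio of 2.25 in pericyte-like cells, from 19 and 31 UMIs in 14 and 10 cells, and of 0.507 in endothelial-like cells, from 49 and 16 UMIs. With 1 library per group the difference between classes was not tested in either case.

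Values in clusters that took no name and entered no comparison were also flagged. Id2 was 450 CPM in KPC-shV and 338 CPM in KPC-shZEB1 in cluster 8, led by Dcstamp. Id1 was 129 CPM in the 233 cells of KPC-shZEB1 in cluster 19, led by Pnlip and Cela1, of which KPC-shV had 5 cells.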

How the results depend on the processing

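Each of 6 ratios and 2 counts was recomputed under 10 or 11 alternatives, 82 values in all. No ratio crossed 1, 52 values stayed within the counting interval of the reported ratio or within 1.5 times the reported count, and 30 moved. At resolution 0.5 the ratios were 0.545 for Grem1, 0.749 for Smoc1, 0.900 for Id1, 0.906 for Id2, 0.443 for Id3 and 0.869 for macrophage-like Bmp2, and 1 list gene was called higher and 4 lower. Without the tumour-like cluster of which KPC-shZEB1 held over 90% (cluster 20), the ratios were 0.544, 0.747, 0.903, 0.908 and 0.440 for the tumour-like genes. There 1 list gene was called higher and 4 lower, beside 4.55% and 1.61% of all genes assessed. As means over cells of the per-cell CPM, Grem1 was 0.623, Id3 0.463 and Bmp2 0.722, with 1 called higher and 5 lower. With the cluster mix held at that of KPC-shV, an alternative chosen after seeing the data, Grem1 was 0.655, Smoc1 0.884, Id1 0.906 and Bmp2 0.925. With the unnamed Dcstamp cluster counted as macrophage-like, also chosen after seeing the data, Bmp2 was 0.771. With no upper UMI limit Smoc1 was 0.797 and Id3 0.528. Bmp2 was 0.858 with no doublet removal and 0.824 with each library clustered alone, and Id2 was 0.619 with background subtracted. With no minimum CPM, 9 list genes were called higher and 9 lower, and at 2-fold 0 were called higher and 3 lower. The share over all genes was not computed at these 2 settings, at resolution 0.5 or for the per-cell means. The cause of these moves was not tested, except where cells or genes were left out by construction. No macrophage-like cluster was over 90% from 1 library, so that alternative gave no Bmp2 value. No paired analysis was possible because each group held 1 library. Depth limited the small classes most, since pericyte-like, acinar-like and most T-NK-like values rest on few UMIs.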

Other observations

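At the level of single cells, counts of member pairs were compared inside clusters with each cell thinned to 10000 UMIs. The points are cells of 1 library and share its free RNA, so these correlations are descriptions. In endothelial-like cells Id1 and Id3 had r = 0.383 over 107 cells in KPC-shV and r = 0.425 over 67 cells in KPC-shZEB1. In tumour-like cluster 7 the same pair had r = -0.06 over 698 cells and r = -0.13 over 438 cells, in cluster 12 r = 0.211 over 329 cells and r = 0.0851 over 378 cells, and in fibroblast-like cells r = 0.0619 and r = 0.0728. Grem1 and Smoc1 had r = 0.178 and r = 0.309 in cluster 7, where Grem1 was detected in 35.4% and 24.9% of the thinned cells. In cluster 12 this pair had r = 0.0312 and r = 0.128, with Grem1 in 9.42% and 6.35% of cells. In cluster 20 of KPC-shZEB1 it had r = 0.0569, with Grem1 in 58.4% of cells.

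The 7 and 20 cells called ILC2-like, among the T-NK sub-clusters, held Bmp2 at 224 and 58.6 CPM from 9 and 6 UMIs, and Bmp7 at 24.9 and 78.2 CPM from 1 and 8 UMIs. Both are counts too small to compare.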
